A study of Taeniopygia guttata with 8 samples.

Results

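Acetylation of histone H3 at lysine 27 (H3K27ac) was compared between singing and silent adult male zebra finches (Taeniopygia guttata) over both sampled song nuclei of the forebrain, RA and Area X. All 8 singing libraries, 4 from each nucleus, were set against all 6 silent libraries, 3 from each nucleus, with the nucleus held as a covariate. All 14 libraries of the deposited table and all of its 35958 regions entered, and 35954 regions passed the filter on low counts. The question was which regions of the genome carry more or less H3K27ac after singing in both nuclei, rather than in either one alone.

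The birds were kept singly in sound-attenuated chambers, and brains were taken after the lights came on and 1 to 2 hr of either silence or singing, with 18 birds per behaviour. The singing groups are labelled as 2 hr of singing. Tissue of 6 birds was pooled, which gives 3 pools per behaviour, whereas the table holds 4 singing libraries of each nucleus; the sources used here do not say where the fourth came from. The source is labelled as laser captured, while the protocol describes song nuclei dissected with scissors and forceps from sections 400 µm thick. No genotype or strain is given, and all groups share the isolation, the fixation in 1% formaldehyde for 15 min and the antibody, of which the labels give a pair of lots. The libraries of the 2 nuclei may come from the same birds, so the 14 libraries may not be fully independent. The table's columns carry "Minus" and "Plus" in their names; these were read as silent and singing, and every direction given here rests on that reading.

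H3K27ac is deposited by the acetyltransferases CBP and p300 and marks active promoters and active enhancers, where it neutralises a positive charge on the histone tail and is bound by proteins with bromodomains. In neurons, activity induces immediate early transcription factors such as those of the FOS and EGR families, and singing induces EGR1 and FOS in song nuclei. RA (robust nucleus of the arcopallium) is part of the motor pathway for song and projects to the vocal motor neurons of the brainstem. Area X lies in the striatum, in the loop of basal ganglia and forebrain that serves song learning and its variability. Because pieces of tissue were measured, a larger share of acetylated cells and more acetylation per cell cannot be told apart.

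The regions are given by position only, counted from 1, on the assembly of the deposited table, which the sources used here do not name. No gene, exon or promoter is therefore assigned to a region, and the markers of the cell types in each nucleus were not checked. The libraries held between 202510 and 10564332 reads within regions. The smallest was RA singing library 4, where the median region had 3 reads and 17% had none. RA silent library 2 was closer to the Area X libraries than to the other RA libraries, with a median Spearman correlation across regions of 0.904 against 0.809. RA singing library 4 was also nearer to Area X (0.791) than to RA (0.691), while the other RA libraries were at 0.58 to 0.715 against Area X. The 4 libraries with number 1, 1 per group, deviated from their group means together, with correlations across regions of 0.51 to 0.72 for the 6 pairs; the part of any shared handling in this was not tested.

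No region passed the test of a difference between singing and silent birds over both nuclei. With a quasi-likelihood test in edgeR and Benjamini-Hochberg adjustment over the 35954 regions, 0 were called at an adjusted p under 0.05, which is 0% of those tested, and the smallest adjusted p was 1.0. At an unadjusted p under 0.05 there were 482 regions with a higher mean in singing birds, 1.34% of those tested, and 481 with a lower one, also 1.34%. The even split depended on the scaling: DESeq2 size factors in edgeR gave 853 higher and 250 lower, total-count scaling 609 and 258, and signal-dependent scaling 666 and 366. Without RA silent library 2 it was 1338 and 182. With TMM in edgeR the counts add up to 963 regions, against the 1798 that an even spread of p-values would place there. This shortfall depended on the method. Limma-voom with library quality weights also called 0, but gave 4341 regions at an unadjusted p under 0.05, with 1828 higher and 2513 lower. DESeq2 with the same design called 1 region, with 1263 higher and 376 lower at an unadjusted p under 0.05. In edgeR, 2 added surrogate variables gave 35 higher and 5 lower calls, and 3852 regions at an unadjusted p under 0.05. Within each nucleus, edgeR without these variables called 0 regions (0% in RA and 0% in Area X). There were 706 regions in RA and 384 in Area X at an unadjusted p under 0.05. The singing effect itself differed between the nuclei at 0 regions (0%) by edgeR, with 211 at an unadjusted p under 0.05.

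**Figure D1:**
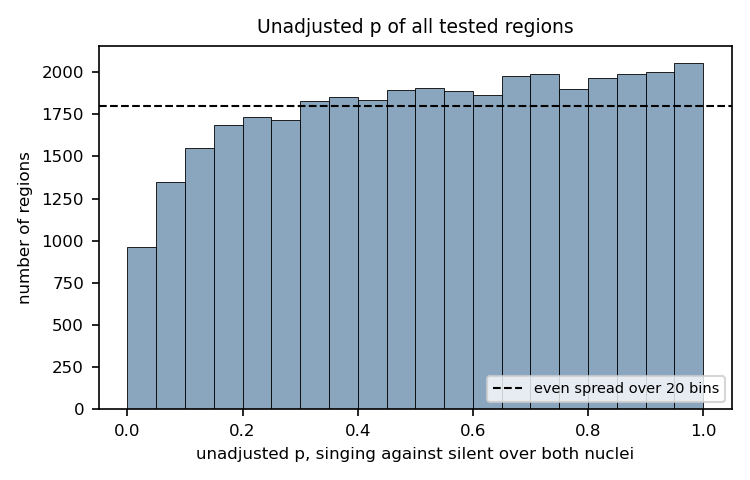
The bars give the number of tested regions in each of 20 equal bins of the unadjusted p for singing against silent over both nuclei, and the dashed line gives an even spread. The lowest bin holds 963 regions and the highest 2056, so small p-values are fewer than the 1798 of an even spread.

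The joint comparison bounds how large an effect common to both nuclei could have been missed, if the 14 libraries are taken as independent. It does not bound an effect in 1 nucleus alone. A fit with a shared-bird effect estimated a correlation of 0.344 between libraries that may share birds. It gave 572 regions at an unadjusted limma p under 0.05, against 963 in edgeR, and its intervals are not given here. The log2 fold change of singing over silent lay between -0.75 and 0.85 for all but 1% of regions at each end, with quartiles of -0.18 and 0.2 and extremes of -2.3 and 1.98. Its 95% interval reached 0.65 to either side on the log2 scale at the median region. The whole interval lay within a 2-fold change in either direction at 23379 regions (65.0%) and within a 4-fold change at 35559 (98.9%). A 1.5-fold change was bounded at only 5110 regions (14.2%). This bound moved with depth, since 91.2% of the quintile of regions with the highest mean signal had their interval within 2-fold, against 20.9% of the quintile with the lowest. At most regions of that lowest quintile, a 2-fold difference between singing and silent birds was not bounded at this depth.

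By the sign of the mean log2 CPM (reads per 1000000 reads in regions, scaled by TMM, the trimmed mean of M-values), singing and silent differed in the same direction in both nuclei at 54.1% of regions. There were 7555 regions higher in singing birds in both (21.0%) and 11890 lower in both (33.1%). The excess of lower regions moved with the scaling and with 1 library. The median log2 difference over all regions was -0.16 in RA and 0.01 in Area X, and without RA singing library 4 the RA median was -0.06. With the sign taken from the fitted log2 fold changes, 29.6% of regions were higher and 28.7% lower in both nuclei. With a scaling that follows the signal level, these shares were 26.3% and 28.1%.

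**Figure D2:**
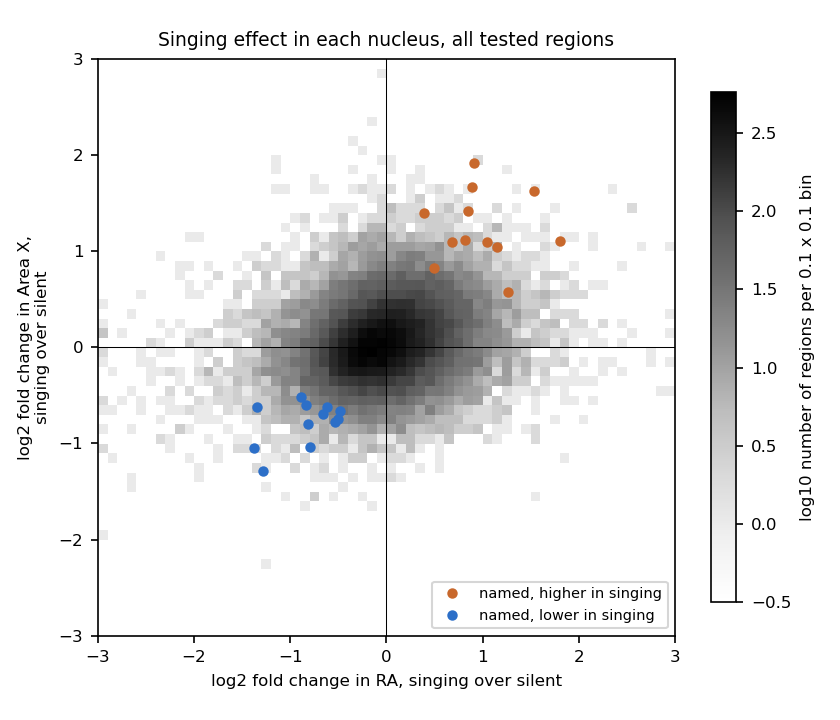
Each square gives the number of tested regions, on a log10 colour scale, by the fitted log2 fold change of singing over silent in RA (horizontal axis) and in Area X (vertical axis); values beyond 3 in either direction are drawn at the edge. The cloud is centred near 0, 58.4% of regions have the same sign in both nuclei, and the 24 named regions (orange higher, blue lower in singing) were picked from the corners where both signs match.

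A stricter description asks where all singing libraries of a nucleus lie beyond all of its silent ones. In RA this held for 197 regions with singing higher (0.548% of those tested) and 621 with singing lower (1.73%). In Area X it held for 650 higher (1.81%) and 587 lower (1.63%). Both nuclei met it together at 17 regions higher in singing (0.0473%) and 37 lower (0.103%). The 2 nuclei went opposite ways at 8 regions, of which 3 were higher in RA and lower in Area X and 5 the reverse. These sets were formed from the values themselves, so no test attaches to them. Exchanging behaviour labels within the nuclei gives 1225 labellings. For a region without tied values, a single one of these places all singing libraries above all silent ones in both nuclei. Regions of this kind therefore arise without any effect of singing. The share separated upward in both nuclei was below 1 in 1225 and the share separated downward above it. Neither difference from that rate was tested.

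Of the 17 regions separated upward in both nuclei, 4 lay on chromosome 2, which held 8.32% of all regions, and 3 on chromosome 4A, which held 2.85%. Of the regions separated downward, 1 lay on chromosome 2 and 1 on 4A. These chromosomes were picked after the counts were seen, and their shares were not tested. The 17 regions had a median width of 528 bp against 764 bp for all regions, with 8 of them at most 500 bp wide and 5 at or above the median CPM. When the regions from the median CPM up were scaled on their own, 17 of those were separated upward and 9 downward. The region of the upward set with the highest CPM, chosen after its values were seen, was chr4A:16216623-16221632, 5010 bp wide. It was also the widest of that set, and CPM was not scaled by width. Its CPM was 111, 85.7 and 122 in the silent RA libraries and 138, 136, 153 and 126 in the singing ones. In Area X it was 101, 80.2 and 80.0 against 129, 133, 178 and 148. Every singing library stood above every silent one of its nucleus, by a modest margin in RA and a wider one in Area X; the joint log2 fold change was 0.57 (95% interval 0.22 to 0.92), with an edgeR adjusted p of 1.0. The smallest unadjusted p in this set, 0.000391, belonged to chr17:832245-833246, also chosen after its values were seen and just under the median CPM. Its CPM was 3.00, 5.52 and 2.31 in silent RA and 5.82, 11.7, 6.81 and 8.69 in singing RA. In Area X it was 10.9, 12.9 and 10.5 against 17.0, 22.7, 35.9 and 30.6. The lowest singing library of RA exceeded the highest silent one by little, and the log2 fold change was 1.18 (0.60 to 1.76). RA singing library 4, at 8.69 CPM, rests on few reads here. The next lower value that this library took at other regions was 4.35 CPM, below the silent RA value of 5.52.

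The 37 regions separated downward in both nuclei had a median width of 780 bp, and 19 of them were at or above the median CPM. Unplaced or random sequence held 12 of them, against 9.88% of all regions, and 5 lay on chromosome 3, which held 7.59%. In the set of 17 separated upward, 2 lay on unplaced or random sequence and 2 on chromosome 3. These classes were also picked after the counts were seen, and their shares were not tested. The joint log2 fold changes of the 37 regions had sizes of 0.33 to 1.84, and 29 had an unadjusted edgeR p under 0.05. Those with the lowest signal rest on few reads. At chr4A:1732861-1733248, chosen after its values were seen, CPM was 2.06, 3.98 and 1.71 in silent RA and 0.176, 0, 0.851 and 0 in singing RA. In Area X it was 6.28, 11.6 and 11.0 against 3.58, 2.89, 5.72 and 3.10. The groups did not overlap in either nucleus, although the RA singing libraries were at or near 0; the edgeR adjusted p was 1.0.

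To show the data at their strongest, 24 regions are named: in each direction, the 12 with the smallest unadjusted p in the joint comparison among those at or above the median CPM with the same sign in both nuclei. They were picked on these values, so their fold changes are descriptions of the extremes of this comparison, and none of the 24 passed the adjusted threshold, the edgeR adjusted p being 1.0 or 1 for each.

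The first of the higher regions was chr14:5350477-5351847, 1371 bp wide. Its CPM was 9.65, 13.5 and 10.4 in silent RA and 12.9, 31.7, 25.2 and 26.1 in singing RA. The silent Area X libraries had 17.4, 20.8 and 21.2 and the singing ones 37.5, 33.4, 47.6 and 51.7. The Area X groups did not overlap, and in RA only singing library 1 fell within the silent range. The means were 11.2 ± 2.02 (SD, n = 3) against 24 ± 7.94 (n = 4) in RA and 19.8 ± 2.08 (n = 3) against 42.5 ± 8.52 (n = 4) in Area X. The joint log2 fold change was 1.08 (95% interval 0.61 to 1.54), a 2.11-fold higher level, with an unadjusted p of 0.000109 by edgeR's quasi-likelihood test across all regions. The nuclei gave nearly the same size, 1.05 in RA and 1.10 in Area X, and their difference was 0.05 with an interval of -0.93 to 1.02. DESeq2 called this region alone, with an adjusted p of 0.0156, and gave no adjusted p for 11153 regions.

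The second, chr20:8643771-8645956, was 2186 bp wide and more strongly acetylated. Its CPM was 24.7, 44.6 and 28.3 in silent RA and 34.2, 80.1, 49.4 and 73.9 in singing RA. The Area X values were 44.8, 65.2 and 47.8 against 77.2, 99, 149 and 131. Area X again separated fully, and in RA singing library 1 lay below the highest silent library, the one that resembled Area X. The joint log2 fold change was 0.97 (0.48 to 1.46).

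The third, chr1A:54410478-54412120, had the largest fold of the 12 and also the widest interval. Its CPM was 7.43, 12.8 and 6.42 in silent RA and 6.17, 41.7, 23.5 and 43.5 in singing RA. The Area X values were 15.6, 20.8 and 18.5 against 21.9, 34.1, 97.2 and 74.9. RA singing library 1 was below every silent RA library, and Area X singing library 1 was barely above the silent ones, while the other singing libraries were well above. The joint log2 fold change was 1.59 (0.77 to 2.41), a 3.01-fold higher level.

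Among the other 9 higher regions, chr18:906215-907116 was the only one of the 12 whose groups separated in both nuclei. Its CPM was 7.59, 8.84 and 6.32 in silent RA and 11.8, 30.9, 15.9 and 13.0 in singing RA. For Area X they were 23.3, 16.2 and 22.4 against 31.5, 32.8, 24.5 and 34.1. RA singing library 4, at 13.0 CPM, rests on few reads here. The next lower value that this library took at other regions was 8.69 CPM, below the silent RA value of 8.84. The separation in Area X was narrow, since singing library 3 stood just above the highest silent library; the log2 fold change was 0.88 jointly, 1.26 in RA and 0.57 in Area X. At chr14:3226600-3229565, a region of 2966 bp, the log2 fold change was 1.09, and 2 further regions at higher coordinates, chr14:3239816-3241064 and chr14:3244027-3248273, had 1.00 and 0.76. The broad Z-linked region chrZ:39110015-39112399 had the smallest of the 12 fold changes, 0.66, at a mean of 78.0 CPM. At chr12:16897784-16899750 the RA value of 1.81 exceeded the Area X value of 1.11, whereas at chrUn:63292070-63293818 RA had 0.91 and Area X 1.92. At neither of these did the difference between nuclei pass, with intervals of -2.31 to 0.90 and -0.49 to 2.51. At chr1:7674570-7676149 RA had 0.39 and Area X 1.40, with an interval of the difference of 0.05 to 1.99 and an unadjusted p of 0.0408 that did not survive adjustment over all regions in edgeR. The remaining higher regions were chr8:27148822-27149642, chr13:1122095-1123314 and chr1:41203961-41204483, with joint log2 fold changes of 1.15, 1.31 and 0.90. Their RA intervals included 0 (-0.02 to 1.72, -0.13 to 1.92 and -0.05 to 1.41), while their Area X intervals lay above 0. The RA interval also included 0 at chrUn:63292070-63293818, chrZ:39110015-39112399 and chr1:7674570-7676149. The Area X interval did at chr18:906215-907116 and chr12:16897784-16899750. A small joint p can thus rest mainly on 1 nucleus.

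**Figure D3:**
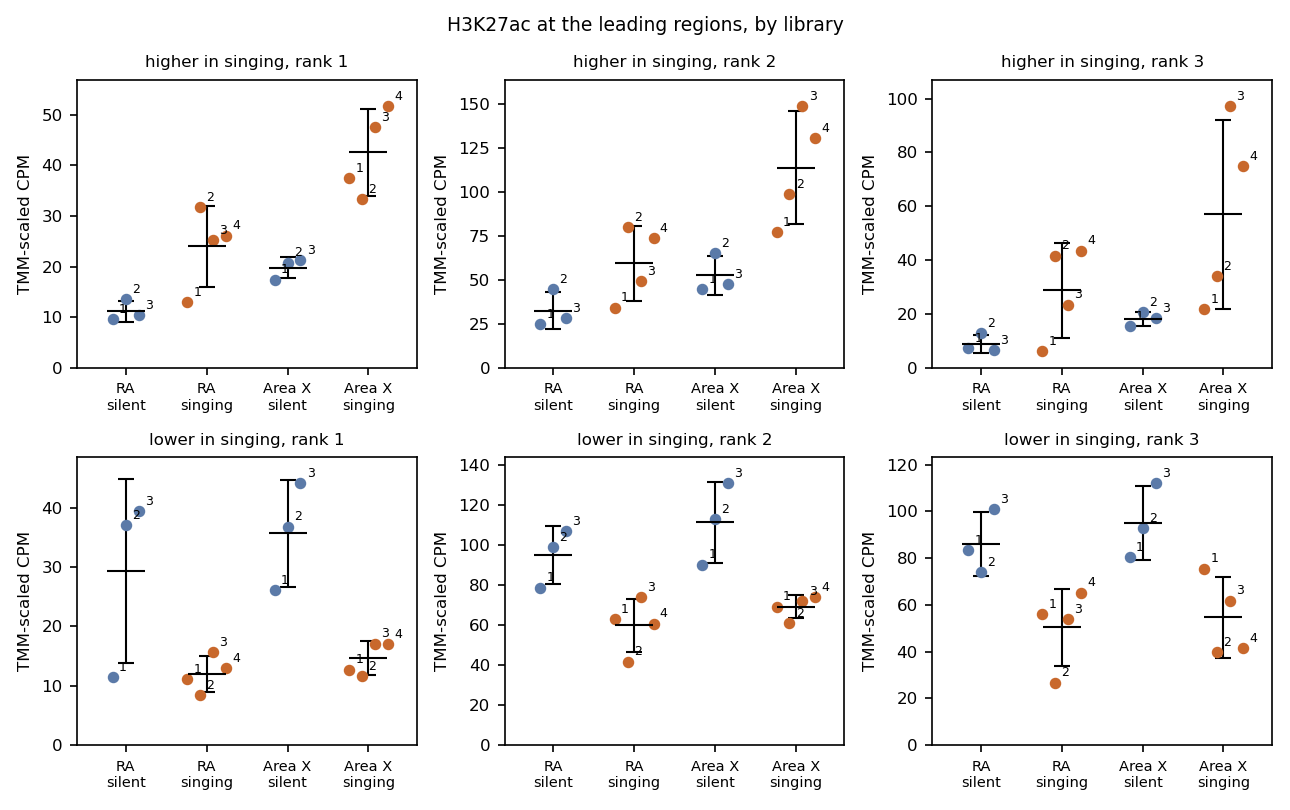
Each panel plots TMM-scaled CPM (vertical axis) for 1 region in RA and Area X, silent in blue and singing in orange, with a dot per library marked by its number, and the mean with its SD as bars. The top row shows chr14:5350477-5351847, chr20:8643771-8645956 and chr1A:54410478-54412120, where singing library 1 is the lowest or next to lowest of its group; the bottom row shows chr1A:53516675-53517600, chr19:10434363-10436802 and chrUn:162155758-162156143, where the singing libraries lie low in both nuclei.

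The first of the lower regions was chr1A:53516675-53517600, 926 bp wide. Its CPM was 11.4, 37.1 and 39.4 in silent RA and 11.1, 8.35, 15.6 and 13.0 in singing RA. The silent Area X libraries had 26.1, 36.8 and 44.1 and the singing ones 12.7, 11.6, 17.1 and 17.0. Area X separated fully, and in RA silent library 1 lay among the singing libraries. The joint log2 fold change was -1.29 (95% interval -1.84 to -0.73), with -1.28 in RA and -1.29 in Area X, and the unadjusted edgeR p across all regions was 0.00011. Without RA silent library 1 the fold change was -1.43.

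The second, chr19:10434363-10436802, was 2440 bp wide and had a smaller fold, with no overlap in either nucleus. Its CPM was 78.8, 99 and 107 in silent RA and 63.1, 41.7, 74.0 and 60.8 in singing RA. The Area X values were 90.3, 113 and 131 against 69.3, 61.1, 72.1 and 74.2. All 8 singing libraries were below all 6 silent ones, whichever nucleus they came from. The means were 95 ± 14.7 (SD, n = 3) against 59.9 ± 13.4 (n = 4) in RA and 111 ± 20.6 (n = 3) against 69.2 ± 5.75 (n = 4) in Area X, and the log2 fold change was -0.67 (-1.03 to -0.32).

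The third, chrUn:162155758-162156143, was 386 bp of unplaced sequence. Its CPM was 83.3, 74.0 and 101 in silent RA and 55.9, 26.7, 53.9 and 65.2 in singing RA. For Area X they were 80.4, 92.7 and 112 against 75.5, 39.7, 61.8 and 41.4. The groups did not overlap in either nucleus, and the log2 fold change was -0.80 (-1.24 to -0.36). Short unplaced regions with a signal this high can hold repeated sequence, and the sources used here do not say how reads with several matches were counted.

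The other 9 lower regions had log2 fold changes between -0.57 and -1.20. Separation in both nuclei was also seen at chr1A:49107927-49109107 (-1.20), chr3:80032024-80033555 (-0.62), chr3:69607127-69608037 (-0.71) and chr22:3073580-3074481 (-0.66). At chr3:80032024-80033555 the effect had the same size in each nucleus, -0.62 in both. At chr2:16029920-16030730 RA had -1.35 and Area X -0.62, with an interval of the difference of -0.37 to 1.83. The remaining members were chr12:2257128-2258319 (-0.93), chr1A:49376474-49378000 (-0.70), chr8_random:1199627-1200716 (-0.63) and chr11:10489347-10491430 (-0.57), the last of which had the smallest fold at a mean of 103 CPM. The RA interval included 0 at chr8_random:1199627-1200716, chr22:3073580-3074481 and chr11:10489347-10491430. The Area X interval did at chr2:16029920-16030730, chr1A:49376474-49378000 and chr3:69607127-69608037.

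**Figure D4:**
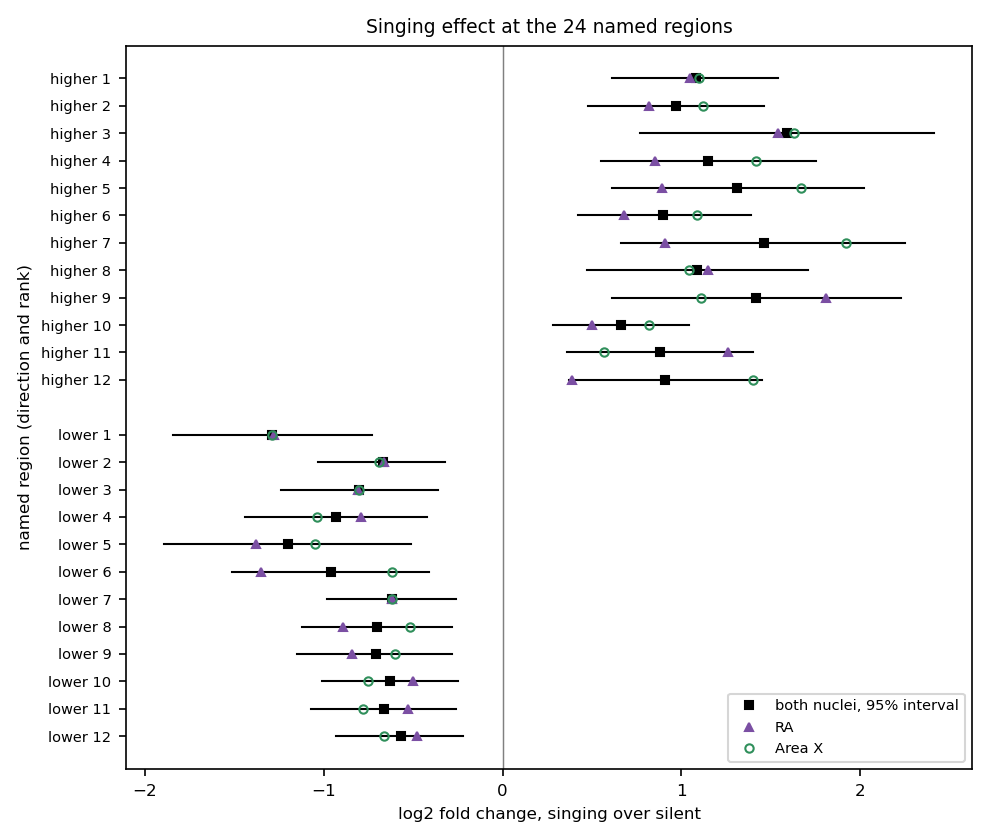
For each of the 24 named regions, in rank order, the square and line give the joint log2 fold change of singing over silent and its 95% interval, the triangle the RA value and the open circle the Area X value. The intervals are unadjusted for the choice among 35954 regions; the joint values run from 0.66 to 1.59 in the higher set and from -1.29 to -0.57 in the lower set.

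The number of libraries behind each direction is a description, since the regions were picked on these values and no difference between the sets was tested. All singing libraries lay beyond all silent ones in RA at 1 of the 12 higher regions and in Area X at 11, against 0.548% and 1.81% of all regions. For the lower regions the counts were 8 in RA and 10 in Area X, with 6 in both, against 1.73%, 1.63% and 0.103% of all regions. In the higher set, RA singing library 1 exceeded all silent RA libraries at 1 of 12 regions. RA singing libraries 2, 3 and 4 did so at 11, 10 and 12. In the lower set the singing RA libraries 1 to 4 lay below all silent ones at 11, 12, 10 and 9 regions. Area X singing library 3 gave the highest value of its group at 8 of the 12 higher regions and library 4 at 3.

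The libraries with number 1 had smaller median differences in both sets and both nuclei. In the higher set the median log2 difference between singing and silent library 1 was 0.33 in RA and 0.46 in Area X, against 1.02 and 1.17 for the other libraries. In the lower set it was -0.32 and -0.20, against -0.88 and -0.94. The direction was still that of the set in 10 and 12 of 12 higher regions and in 11 and 10 of 12 lower ones. The part of the number 1 libraries' shared deviation in these differences was not tested. Without those 4 libraries there were 0 calls and 2501 regions at an unadjusted p under 0.05, with a smallest edgeR adjusted p of 0.195.

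**Figure D5:**
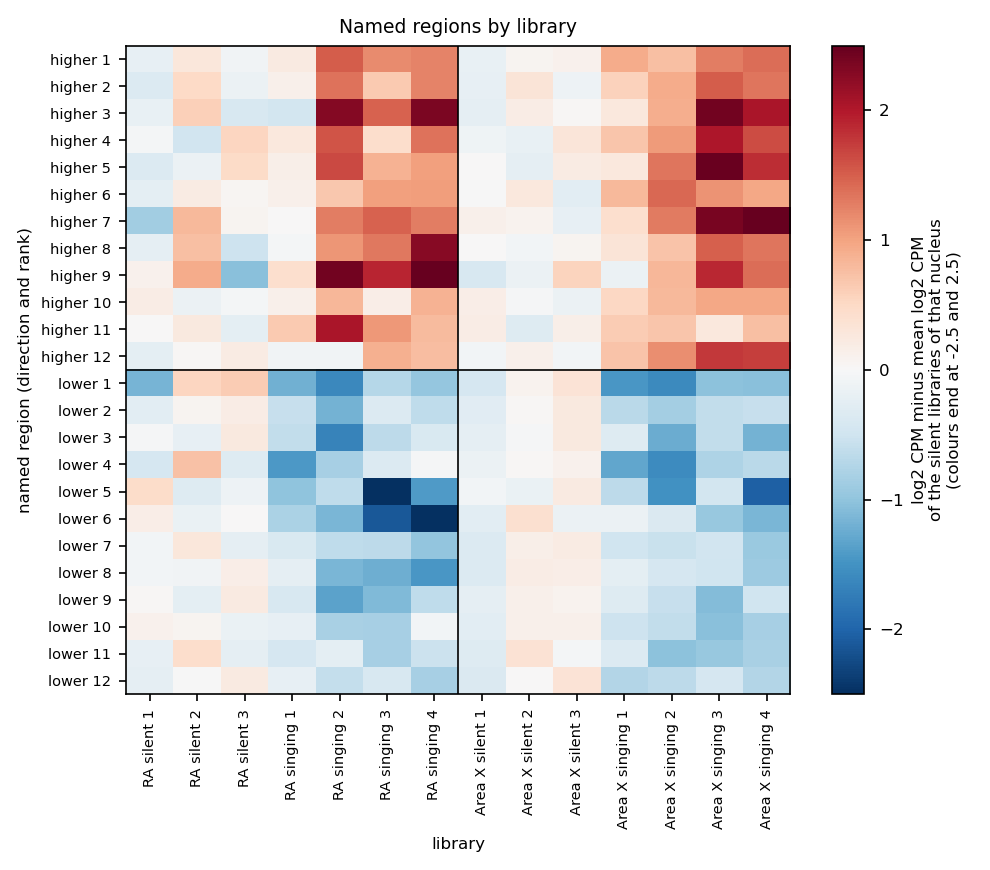
Rows are the 24 named regions and columns the 14 libraries, and the colour is log2 CPM minus the mean log2 CPM of the silent libraries of that nucleus, ending at 2.5 in either direction. Singing library 1 is pale in many rows, whereas the other singing libraries are deeper in colour. Over the higher set, the median difference of singing library 1 from silent library 1 alone was 0.33 in RA and 0.46 in Area X. The colours do not use that baseline.

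Where the sets stood between the nuclei was not a criterion of the choice, but is not independent of it. The choice used mean CPM over both nuclei and the p of the same fit. Over all regions by quintile of this contrast, 0.668% to 2.23% were higher and 0.0834% to 2.93% lower at an unadjusted edgeR p under 0.05. The shares of all regions given here were not limited to those at or above the median CPM. The difference between the sets was not tested. Area X was above RA, at an edgeR adjusted p under 0.05, at 9 of the 12 higher regions, against 29% of all regions tested, and at 3 of the 12 lower ones. RA was above Area X at 0 of the higher and 1 of the lower regions, against 26.1% of all. The median log2 fold change of Area X over RA was 0.97 in the higher set, 0.29 in the lower set and -0.03 over all regions. At chr14:3226600-3229565 and chr12:16897784-16899750 it was 1.35 and 1.59. Among the RA singing libraries, numbers 2, 3 and 4 were more like Area X, at 0.714 to 0.791, than number 1, at 0.596. Number 1 gave the highest value of its group at 0 of the 12 higher regions. RA silent library 2 was the most like Area X of all RA libraries, at 0.904. At the first 3 higher regions it had 13.5, 44.6 and 12.8 CPM. These were the highest silent RA values, but below RA singing libraries 2, 3 and 4. At chr8:27148822-27149642 and chrZ:39110015-39112399 RA silent library 2 was instead the lowest silent RA library, at 9.72 and 54.1 CPM. It lay between the others at chr13:1122095-1123314 and chr1:7674570-7676149. At the latter its 26.1 CPM exceeded the 24.2 of RA singing library 2. It was the highest silent RA library at the rest of the higher set. The part of the likeness to Area X in the RA values was not tested.

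Across all regions, the median joint fold change varied less with width or signal than with the contrast between nuclei. It was between -0.03 and 0.03 in the 5 classes of width, and between -0.06 and 0.07 in the quintiles of mean CPM. The share of regions with a positive joint fold change was 58.0% in the second lowest quintile of mean CPM and 39.2% in the highest. In the quintile of regions most toward RA the median was 0.13, in the middle quintile -0.11, and in the quintile most toward Area X 0.07. In the quintile most toward RA the value in Area X was 0.23 and in RA 0.04. In the quintile most toward Area X it was the RA value that was larger, 0.15 against 0.02. These medians and shares were not tested, and their spread between libraries was not measured. The quintiles of mean CPM and of the contrast between nuclei were formed from the same counts as the fold changes. They are therefore not independent of the fold changes.

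Of the 18675 neighbouring pairs at most 10000 bp apart, 59.1% had joint fold changes of the same sign. The higher regions had 12 neighbours within that distance, at 8 of the regions, and 9 of these neighbours had a positive fold change. The lower regions also had 12, at 9 of the regions, and 9 of them had a negative one. On chromosome 1A, 2 of the lower regions lay at the ends of a stretch chr1A:49107927-49378000, chosen after its values were seen, that held 16 regions. Of these 12 were lower and 4 higher in singing birds, with a median log2 fold change of -0.17 and 3 at an unadjusted p under 0.05. The summed CPM of the stretch was 661 ± 51.3 (SD, n = 3) in silent and 540 ± 101 (n = 4) in singing RA, and 684 ± 98.6 (n = 3) against 586 ± 46.9 (n = 4) in Area X. The difference of these sums was not tested, and the ends of the stretch are regions picked for being lower in singing birds.

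Summing reads over neighbouring regions at most 10000 bp apart gave 17283 domains, of which 10030 held a single region. Of the 17279 domains tested, edgeR called 0 (0%), with 281 higher and 196 lower at an unadjusted p under 0.05 where an even spread gives 864. The interval was narrower than for single regions, reaching 0.57 to either side at the median, and lay within 2-fold at 12253 domains (70.9%). The leading domain of more than 1 region was chr14:5346020-5351847, which joins the first higher region to 2 neighbours. Its CPM was 34.6, 30.5 and 29.3 in silent RA and 32.7, 57.7, 57.8 and 62.2 in singing RA. The Area X values were 49.8, 51.7 and 46.8 against 82.8, 70.7, 75.9 and 83.7. Area X separated fully and RA did in all but singing library 1, and the log2 fold change was 0.68 (0.35 to 1.00), smaller than the 1.08 of its strongest region.

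The other leading domains each held 1 region. The higher ones were chr20:8643771-8645956, with a log2 fold change of 1.04, and chr3:22103694-22104790, with 1.58 at 3.84 ± 1.86 CPM in silent RA. The lower ones were chr1A:53516675-53517600 (-1.23), chrUn:154099534-154099976 (-1.67) and chrUn:162155758-162156143 (-0.74). Of these, chrUn:154099534-154099976 rests on few reads, with 0.495 ± 0.572 CPM in singing RA.

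The share of reads that fell into each class of width did not differ detectably with behaviour. By an exact two-sided permutation over 1225 labellings within the nuclei, 0 of 5 width classes were called (0%), and the smallest unadjusted p was 0.591. Regions over 4000 bp held 23.5% ± 3.15 (SD, n = 3) of reads in silent and 24.3% ± 2.89 (n = 4) in singing RA. In Area X they held 29.0% ± 1.95 (n = 3) and 29.1% ± 3.04 (n = 4). By chromosome, 0 of 34 classes were called (0%). Chromosome 4A had the smallest p, 0.0327 by the exact permutation test, with an adjusted value of 0.943. Its share was 3.17% ± 0.0495 (n = 3) against 3.32% ± 0.120 (n = 4) in RA and 3.34% ± 0.0477 (n = 3) against 3.44% ± 0.121 (n = 4) in Area X. The singing shares were 3.16, 3.30, 3.42 and 3.41% in RA, where the silent ones were 3.13, 3.23 and 3.16%. In Area X the singing shares were 3.37, 3.36, 3.41 and 3.62% and the silent ones 3.38, 3.29 and 3.35%. The groups thus overlapped in both nuclei.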

How the data were processed

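H3K27ac chromatin immunoprecipitation with sequencing was measured in pools of RA and Area X tissue. The authors deposited 1 table of raw read counts per region and library, with no normalization. The submitters' processing notes name SAMtools 1.1, bedtools, MACS2 2.1 and HTSeq 0.6.1; the sources used here give neither their roles nor the aligner or assembly. Sonicated fragments averaged 200 to 400 bp, per the labels' protocols. No correction for input was made, since the input samples were not analysed here.

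Counts were fitted with edgeR 4.0.16 in R 4.3.3 (TMM scaling, filterByExpr on the 4 groups, robust quasi-likelihood test, additive terms for nucleus and behaviour), with Benjamini-Hochberg adjustment over all tested regions and a threshold of 0.05. The biological coefficient of variation was 0.38. Values in each nucleus and their difference came from a fit with a mean for each of the 4 groups. Log2 CPM used a prior count of 2. Mean ± SD was taken over libraries. The edgeR p-values for each nucleus and their difference rest on the spread between libraries of the same nucleus and behaviour. In the joint fit, this spread also takes in any difference of the singing effect between the nuclei. Estimates of spread drew on all regions. The sources do not say whether all libraries are separate pools. Class shares were tested by exact permutation of behaviour within nuclei.

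Named regions are the 12 per direction with the smallest p in the joint fit, at or above the median CPM, and of the same sign in both nuclei. For domains, 3 per direction are named. The regions, classes and tests were chosen with earlier results of these data known. Lists of activity-regulated genes and of cell type markers were set up for use with an annotation of the table's assembly and were not used here. Alternatives used DESeq2 1.42.0, limma 3.58.1 and sva 3.50.0. The edgeR script was tested on simulated counts.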

Additional observations from a re-analysis of the deposited data

Results flagged for a closer look

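In the domain chr14:5346020-5351847, RA singing library 1 stood apart from the other libraries of its group, at 32.7 CPM against 57.7, 57.8 and 62.2. Its gap to the nearest of them was 0.847 of the group's whole range, above Dixon's critical value of 0.829 for 4 samples. Over 60 groups tested in this way, chance gives about 3 such cases, and 1 was found.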

How the results depend on the processing

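Over the 29 alternatives, edgeR, DESeq2 and limma called 0 regions except in 2 of them. With 2 surrogate variables, 35 regions were called higher and 5 lower in singing birds, with a smallest adjusted p of 0.0165. All 40 had the same sign in both nuclei, which a call on a joint effect favours by construction, and 9 were named regions. The surrogate variables were estimated from the same counts, and the cause of the calls was not tested. DESeq2 called 1 region higher, chr14:5350477-5351847, and gave no adjusted p for 11153 regions. With library number as a replicate block there were 0 calls, 1339 regions at an unadjusted p under 0.05 and a smallest adjusted p of 0.995. Same-numbered libraries of different groups correlated in their deviations at 0.51 to 0.72 for number 1 but at -0.31 to 0.46 for number 2 and -0.19 to 0.56 for number 3, so the numbers were not taken as pairs. Quality weights gave 0 calls with 4341 such regions and a smallest adjusted p of 0.0989; a shared-bird effect, with an estimated correlation of 0.344, gave 0 with 572. A term for number 1, chosen after seeing the data like the other treatments of number 1 and the signal-dependent scaling, gave 0 with 1783. Leaving out each library in turn gave 0 calls, with 606 to 1587 regions at an unadjusted p under 0.05, of which 317 (without Area X silent 2) to 1338 (without RA silent 2) were higher and 182 (without RA silent 2) to 679 (without Area X silent 1) lower. All 696 values of named regions kept their sign, and 10 passed the threshold. Kept signs were close to fixed in advance, since the regions were picked on the same libraries for a small p and matching signs. Domains called stayed at 0 under every setting run for them.

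Counts of regions with no overlap between groups depended most on the setting. With DESeq2 size factors 28 were separated upward and 24 downward in both nuclei, against 17 and 37. In the upper part of the regions by mean CPM, from the median up and with the scaling recomputed, 17 were separated upward and 9 downward, where the main scaling gives 5 and 19 in that part. Without RA silent library 2 and RA singing library 4 the counts were 68 upward and 91 downward. Leaving out each library gave 17 (without Area X singing 4) to 83 (without RA silent 2) upward and 35 (without RA silent 3) to 145 (without Area X silent 1) downward. Fewer libraries make separation easier by construction. Depth limits low regions most, and RA singing library 4 in particular.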
